A study of Mus musculus with 28 samples.

Results

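MHC and antigen presentation genes were followed through the bulk RNA, chromatin accessibility and single-cell libraries of mouse skeletal cells with and without conditional deletion of Zmpste24 (Z24). The set held 10 genes by name, namely Cd74, H2-Aa, H2-Ab1, H2-Eb1, H2-K1, H2-D1, B2m, Tap1, Tap2 and Nlrc5, out of 53801 genes in the RNA count tables. The genes were chosen by their bulk RNA values in cko and ctrl periosteal cells, because Cd74 was higher in cko than in ctrl periosteal cells. The cko against ctrl difference in periosteal RNA is therefore a description here, with no test, while the growth plate cells and the accessibility data did not enter that choice and were tested. The RNA contrast between the tissues was also tested, but its periosteal side holds the ctrl and cko libraries that entered the choice, so its p-values are not independent of that choice, either over all libraries or over the ctrl libraries alone.

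The series held 28 libraries, of which 4 were single-cell RNA libraries, 12 were bulk RNA libraries and 12 were ATAC libraries. All cells were sorted as td-Tomato+ (the Ai9 reporter of Cre recombination), and the study's antibody panel also stained CD45, Ter119 and CD31, which mark leukocytes, erythroid cells and endothelial cells, to gate these out. pSSCs were Sca1+ cells from periosteum and gpSSCs were CD73+ cells from growth plate, each taken at 20 weeks of age from mice with Prx1-Cre, which recombines in the early limb mesenchyme, with 3 ctrl and 3 cko libraries per population and assay. Zmpste24 encodes the metalloprotease that matures prelamin A, and its loss is used as a model of premature aging. The labels' genotype entry reads PrxCre; Z24fl/fl for every bulk library, those titled ctrl included, so ctrl and cko were taken from the titles, and the exact genotype of the ctrl mice is not settled by the labels. The single-cell libraries came from bone marrow and bone. At 8 weeks there was 1 library of cells marked by Prx1-Cre and 1 of cells marked by Osx-Cre, labelled PrxCre; Z24fl/fl and OsxCre; Z24fl/fl although the study describes these mice as carrying Cre and reporter only, and 1 library each at 16 weeks for ctrl (PrxCre; Z24fl/+) and cko (PrxCre; Z24fl/fl). The 16-week cells came from 3 pairs of ctrl and cko mice, with 1 library per genotype, and the number of mice behind the other libraries is not given in the sources used here.

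Class I molecules, made of a heavy chain such as H2-K1 or H2-D1 with the light chain B2m, are carried by nearly all nucleated cells and show peptides from inside the cell to CD8 T cells. The peptides are cut by the proteasome and pumped into the endoplasmic reticulum by the transporter TAP, a dimer of Tap1 and Tap2, and Nlrc5 is the transactivator that drives transcription of class I genes. Class II molecules pair an alpha with a beta chain, H2-Aa with H2-Ab1 for I-A and the beta chain H2-Eb1 for I-E, and travel with the invariant chain Cd74 to endosomes, where they load peptides for CD4 T cells. Class II is a mark of professional antigen presenting cells (B cells, dendritic cells and macrophages), is driven by the transactivator Ciita, and can be switched on by interferon-gamma in stromal cells.

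The 250 bases before the start site are shown for H2-Aa, H2-Eb1 and H2-K1, because they set a class II alpha chain, a class II beta chain and a class I heavy chain side by side at sites where ATAC peaks were found. The sequences are from RefSeq (GRCm38.p6) and are written 5′ to 3′ along the gene, which lies on the minus strand for H2-Aa (chr17:34287824-34288073), the plus strand for H2-Eb1 (chr17:34305617-34305866) and the minus strand for H2-K1 (chr17:34000348-34000597). Capitals mark matches on either strand to ATTGG (the inverted CCAAT letters of the Y box), to TGACG (as in the X2 box and CRE sites) or to GAANNGAAA (as in the interferon-stimulated response element, ISRE).
H2-Aa: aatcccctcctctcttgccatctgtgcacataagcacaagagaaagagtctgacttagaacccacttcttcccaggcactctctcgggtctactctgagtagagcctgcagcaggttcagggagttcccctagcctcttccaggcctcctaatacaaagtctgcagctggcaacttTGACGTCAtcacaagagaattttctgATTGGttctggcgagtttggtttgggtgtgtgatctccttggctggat
H2-Eb1: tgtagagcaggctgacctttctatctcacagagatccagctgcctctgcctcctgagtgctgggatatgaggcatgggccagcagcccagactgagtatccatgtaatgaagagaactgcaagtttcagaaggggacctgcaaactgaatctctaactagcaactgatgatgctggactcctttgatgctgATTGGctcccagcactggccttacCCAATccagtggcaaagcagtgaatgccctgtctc
H2-K1: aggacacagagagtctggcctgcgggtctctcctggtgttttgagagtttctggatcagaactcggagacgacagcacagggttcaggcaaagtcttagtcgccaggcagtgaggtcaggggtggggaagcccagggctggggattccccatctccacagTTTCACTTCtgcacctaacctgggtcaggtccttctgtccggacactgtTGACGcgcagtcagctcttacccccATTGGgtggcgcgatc
In H2-Aa, TGACG lay on both strands at bases -74 to -70 and -71 to -67 from the start, which overlap, and ATTGG lay at -48 to -44. H2-Eb1 held ATTGG at -59 to -55 and, on the reverse strand, at -35 to -31, and none of the other letters searched. H2-K1 held an ISRE-like match on the reverse strand at -90 to -82, TGACG at -41 to -37 and ATTGG at -16 to -12. The windows of H2-D1 and B2m, which overlap annotated transcripts and are not shown, held TGACG at -101 to -97 and -78 to -74. H2-D1 also held the ISRE-like letters on the reverse strand at -150 to -142, and Tap1 held TGACG at -86 to -82. Among 32851 RefSeq promoters of the same length, 33.8% held ATTGG, 17.8% held TGACG and 6.31% GAANNGAAA, and the GAS letters TTCNNNGAA, present in 7.02% of promoters, were in none of the windows searched. These are matches of letters in these windows and nothing more. Cd74, H2-Ab1, Tap2 and Nlrc5 were not among the promoter entries.

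On mm10 (GENCODE M21 annotation), 7 of the genes lie on chromosome 17, in the MHC, with H2-K1 at chr17:33996017-34000347, Tap1 at chr17:34187553-34197225, Tap2 at chr17:34203527-34216321, H2-Ab1 at chr17:34257689-34269419, H2-Aa at chr17:34282744-34287823, H2-Eb1 at chr17:34305867-34316674 and H2-D1 at chr17:35262730-35267499. The other genes are Cd74 at chr18:60803848-60812652, B2m at chr2:122147686-122153083 and Nlrc5 at chr8:94434356-94527272. H2-K1, H2-D1 and the H2-Q heavy chains are closely related paralogs, so reads counted for one of them could derive from another.

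Bulk RNA totals ran from 1333260 to 5315709 counts per library. Over genes with 5 to 99 counts, replicates 2 and 3 of every group agreed within sampling noise. Their chi-square statistic divided by its degrees of freedom ran from 0.805 to 0.972. Over genes with at least 20 counts it ran from 1.59 to 1.92, above sampling noise. Replicate 1 stood far apart from both (10.2 to 14.2 and 53.2 to 71.4), with 12082 to 12981 genes detected against 15776 to 17207. Replicates 2 and 3 were therefore summed and counted as 1 sample, which left n = 2 per group, and nothing in the sources used here says that replicates were separate animals, so p-values measure only the spread between these libraries. Values are given for every library, and cko over ctrl ratios separately for replicate 1 and for the sum of replicates 2 and 3. Zmpste24 itself was at 0.750, 16.8 and 16.9 counts per 1000000 (CPM) in pSSC ctrl replicates 1, 2 and 3 against 0, 8.58 and 7.71 in cko, and at 4.65, 15 and 15.9 CPM in gpSSC ctrl against 1.09, 8.09 and 7.16 in cko. Within each replicate number the cko library was thus the lower one, at 0.477 (pSSCs) and 0.484 (gpSSCs) of ctrl in replicates 2 and 3, although the ranges of ctrl and cko overlapped because of replicate 1. The chondrocyte marker list (10 genes) summed to 28772 to 53545 CPM in gpSSC libraries and 9717 to 13368 CPM in pSSC libraries, with no overlap. A list of periosteal stromal (PMSC) markers summed to 24479 to 54499 CPM in pSSC and 8570 to 35643 CPM in gpSSC libraries, so those ranges overlapped. Within each genotype and replicate number the pSSC library was the higher one.

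In pSSCs, every one of the 9 members that passed the filter on low counts had a higher fitted level in cko than in ctrl, although without ctrl replicate 1 B2m (-0.56) and Tap2 (-0.42) were lower, with a median log2 fold change of 0.85 against -0.02 over 11878 genes. That median was 1.48 without cko replicate 1, 1.52 with DESeq2 and 1.82 in replicates 2 and 3. The class II genes and Nlrc5 differed most, and Tap2 and the class I chains least. These values chose the set and are given as such. Cd74, the invariant chain, was at 6.75, 4.28 and 1.01 CPM in ctrl replicates 1, 2 and 3 (9, 13 and 5 counts) and at 113, 20.2 and 17.9 CPM in cko (212, 66 and 95 counts). All 3 cko libraries lay above all 3 ctrl libraries, and the ratio was 16.7 in replicate 1 and 8.35 in replicates 2 and 3. H2-Aa, the I-A alpha chain, followed the same order at 4.50, 0.329 and 0.805 CPM in ctrl and 27.2, 7.05 and 6.21 CPM in cko, again with no overlap (ratios 6.04 and 10.5). For Cd74 and H2-Aa, replicate 1 was thus the highest cko library.

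The beta chains and Nlrc5 had the opposite order among replicates. H2-Ab1, the I-A beta chain, was at 0.750, 8.55 and 10.3 CPM in ctrl and 1.60, 47.8 and 53.8 CPM in cko (ratios 2.13 and 5.36). H2-Eb1, the I-E beta chain, had no counts in replicate 1 of any group and was at 2.30 and 1.61 CPM in ctrl against 10.7 and 9.59 CPM in cko replicates 2 and 3 (ratio 5.35), and Nlrc5 was likewise at 0 in replicate 1 and at 4.60 and 3.42 CPM in ctrl against 27.3 and 26.5 CPM in cko (ratio 6.93). Replicate 1 therefore carried almost none of the RNA counted for H2-Ab1, H2-Eb1 and Nlrc5 and says little about them, and their ctrl and cko ranges overlapped for that reason. H2-Eb1 did not pass the filter on low counts in this contrast.

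**Figure D1:**
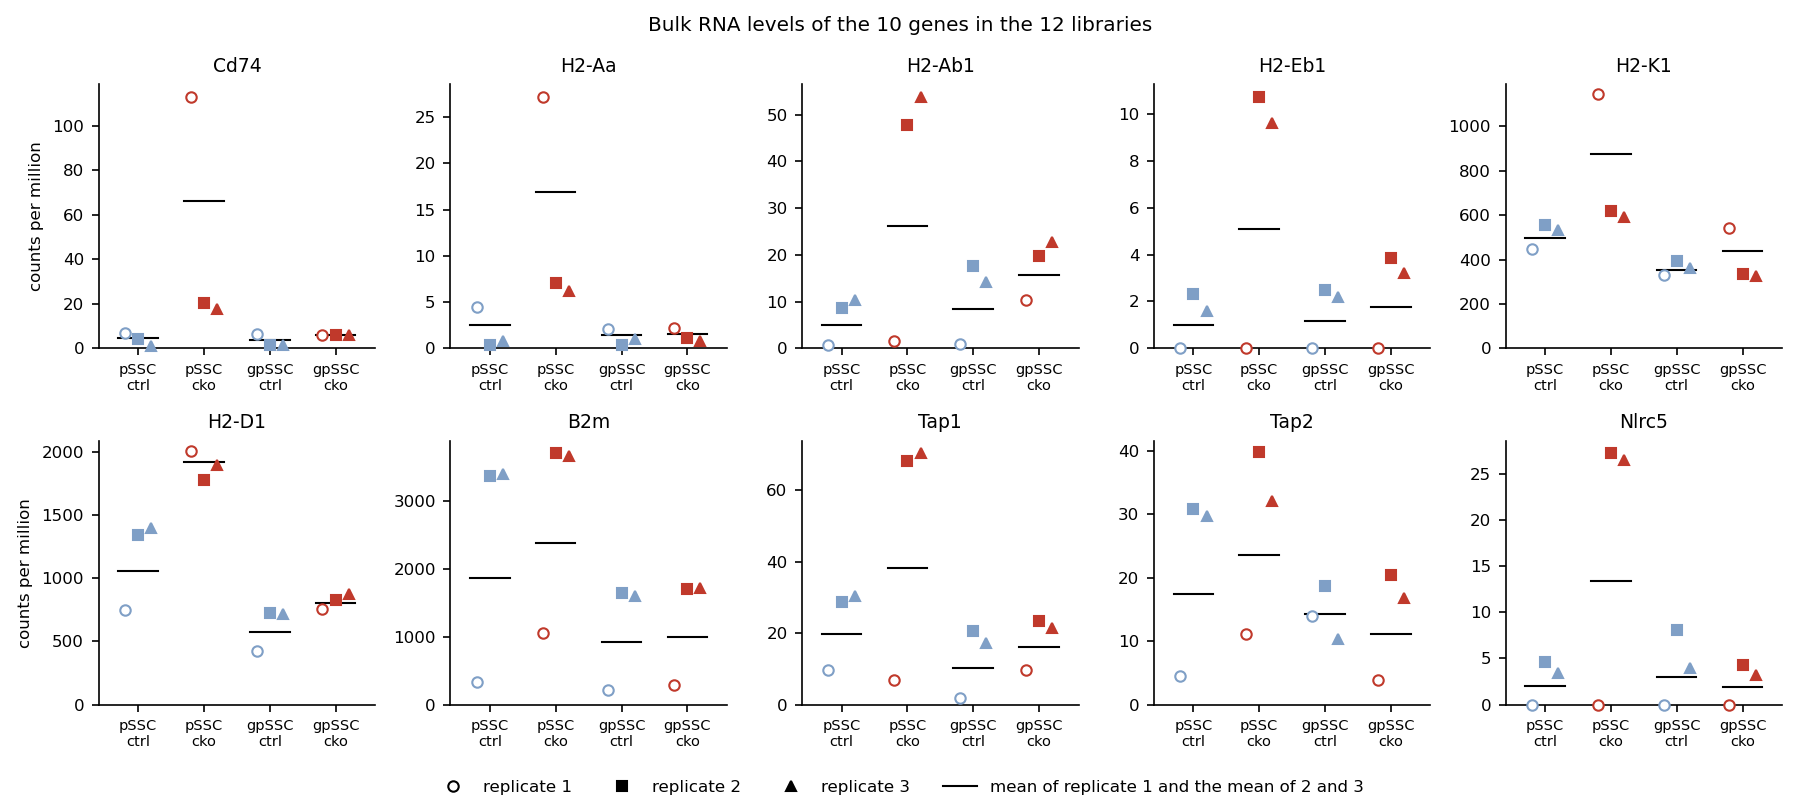
Bulk RNA levels (y axis, counts per 1000000, linear from 0) of the 10 genes in the 12 libraries; open circles are replicate 1, filled squares and triangles replicates 2 and 3, and black lines the mean of replicate 1 and the mean of replicates 2 and 3. In pSSCs the cko points of Cd74, H2-Aa, H2-K1 and H2-D1 all lie above the ctrl points, and for H2-Ab1, H2-Eb1, B2m, Tap1 and Nlrc5 the replicate 1 points lie below the others.

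Class I chains were abundant in all pSSC libraries and differed less. H2-D1 was at 750, 1344 and 1402 CPM in ctrl and 2011, 1777 and 1902 CPM in cko, with no overlap (ratios 2.68 and 1.34). H2-K1 was at 449, 555 and 532 CPM in ctrl and 1148, 621 and 592 CPM in cko, also with no overlap, but its ratio of 2.56 in replicate 1 compared with 1.11 in replicates 2 and 3. B2m, the shared light chain, was at 338, 3378 and 3399 CPM in ctrl and 1062, 3721 and 3679 CPM in cko, so that the replicate number separated the libraries far more than genotype did (ratios 3.15 and 1.09). Of the transporter subunits, Tap1 was at 9.75, 28.6 and 30.4 CPM in ctrl and 6.93, 68.0 and 70.4 CPM in cko (ratios 0.711 and 2.34) and Tap2 at 4.50, 30.9 and 29.8 against 11.2, 39.8 and 32.2 CPM (ratios 2.49 and 1.16). Tap1 was the sole member that replicate 1 placed lower in cko.

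In all, 4 of the 10 members (Cd74, H2-Aa, H2-K1 and H2-D1) had 3 cko libraries above all 3 ctrl libraries, beside 11.2% of the genes tested. Cko was higher in all 3 same-numbered pairs for 7 members, beside 24.7% of genes, and 4 members had a fitted log2 fold change over 1, beside 13.4%. The fitted values were 3.81 for Cd74 (1.94 without cko replicate 1), 2.64 for H2-Aa (4.68 without ctrl and 1.26 without cko replicate 1), 2.60 for Nlrc5, 2.22 for H2-Ab1 (1.42 without ctrl replicate 1), 0.85 for Tap1 (0.32 without ctrl and 1.70 without cko replicate 1), 0.77 for H2-D1, 0.72 for H2-K1, 0.33 for Tap2 and 0.29 for B2m, and 48.7% of all genes had a value above 0. In sorted bulk samples, a change in the number of cells of one kind cannot be told apart from a change in RNA per cell.

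Genes of other cell types moved with the class II genes in these libraries. The B cell list (among them Cd79a, Cd79b, Ms4a1, Pax5, Ighm and Jchain) summed to 1.5, 2.96 and 3.42 CPM in pSSC ctrl and 24.5, 29.1 and 21.8 CPM in cko, with no overlap. Ighm, the heavy chain of IgM, was at 1.5, 1.97 and 2.01 CPM against 24.5, 9.19 and 7.52 CPM. Cd79a, a signalling chain of the B cell receptor, had 0, 0 and 3 counts against 0, 64 and 69. Ighm was thus the more abundant of these in cko replicate 1, and Cd79a in cko replicates 2 and 3. Cd79b, Ms4a1 and Jchain, which also mark B lineage cells, had no count in any of the 12 libraries. Lyz2, the lysozyme of macrophages and neutrophils, was at 4.50, 0.329 and 0.201 CPM in ctrl and 26.1, 7.96 and 7.52 CPM in cko, whereas the other 11 genes of the macrophage and monocyte list summed to 4.50, 26.3 and 29.0 CPM in ctrl and 3.20, 22.1 and 16.2 CPM in cko, lower in cko in each pair. Lyz2 was singled out after its values were seen. The part of these genes in the Cd74 and H2-Aa difference was not tested.

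Other immune lists did not separate pSSC ctrl from cko. Ptprc, which encodes CD45, had 0, 0 and 2 counts in ctrl and 0, 0 and 0 counts in cko. The macrophage and monocyte list (12 genes, 10 detected, Cd68 the most abundant, Adgre1 and C1qc at 0) summed to 9.0, 26.6 and 29.2 CPM in ctrl and 29.3, 30.0 and 23.7 CPM in cko. The dendritic cell list (9 genes, 5 detected, Batf3 the most abundant, Itgax, Cd209a, Siglech and Ccr7 at 0) was at 19.5, 15.8 and 16.9 against 17.1, 30.0 and 32.9 CPM. Neutrophil genes (7, of which 5 were detected, S100a8 the most abundant, Elane and Csf3r at 0) were at 9.75, 18.1 and 13.9 against 35.7, 8.58 and 6.58 CPM. T and NK cell genes (8, of which 3 were detected, Cd3e, Cd3d, Cd4, Cd8a and Klrb1c at 0) stayed at or below 6.93 CPM in pSSCs, nearly all of it Ccl5 in replicate 1. Basophil and mast cell genes (8, of which 3 were detected, Mcpt8 the most abundant, Fcer1a, Ms4a2, Mcpt4, Cma1 and Tpsb2 at 0) were at 0, 22.7 and 18.9 against 0, 21.1 and 17.5 CPM. For these lists the ctrl and cko ranges overlapped. Erythroid genes (7, all detected, Hbb-bs the most abundant) summed to 21.8, 1959 and 1842 CPM in ctrl and 161, 1387 and 1306 CPM in cko, with overlapping ranges, and endothelial genes (7, all detected, Plvap the most abundant) to 109, 139 and 132 against 130, 201 and 196 CPM, higher in cko in each pair. The osteoclast list (6 genes, 4 detected, Ctsk the most abundant) was at 170, 341 and 332 against 295, 425 and 430 CPM. The pericyte list (7 genes, all detected, Cspg4 the most abundant) was at 142, 208 and 226 against 173, 370 and 363 CPM. Both were higher in cko in each pair, with overlapping ranges. The part of these lists was not tested.

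**Figure D2:**
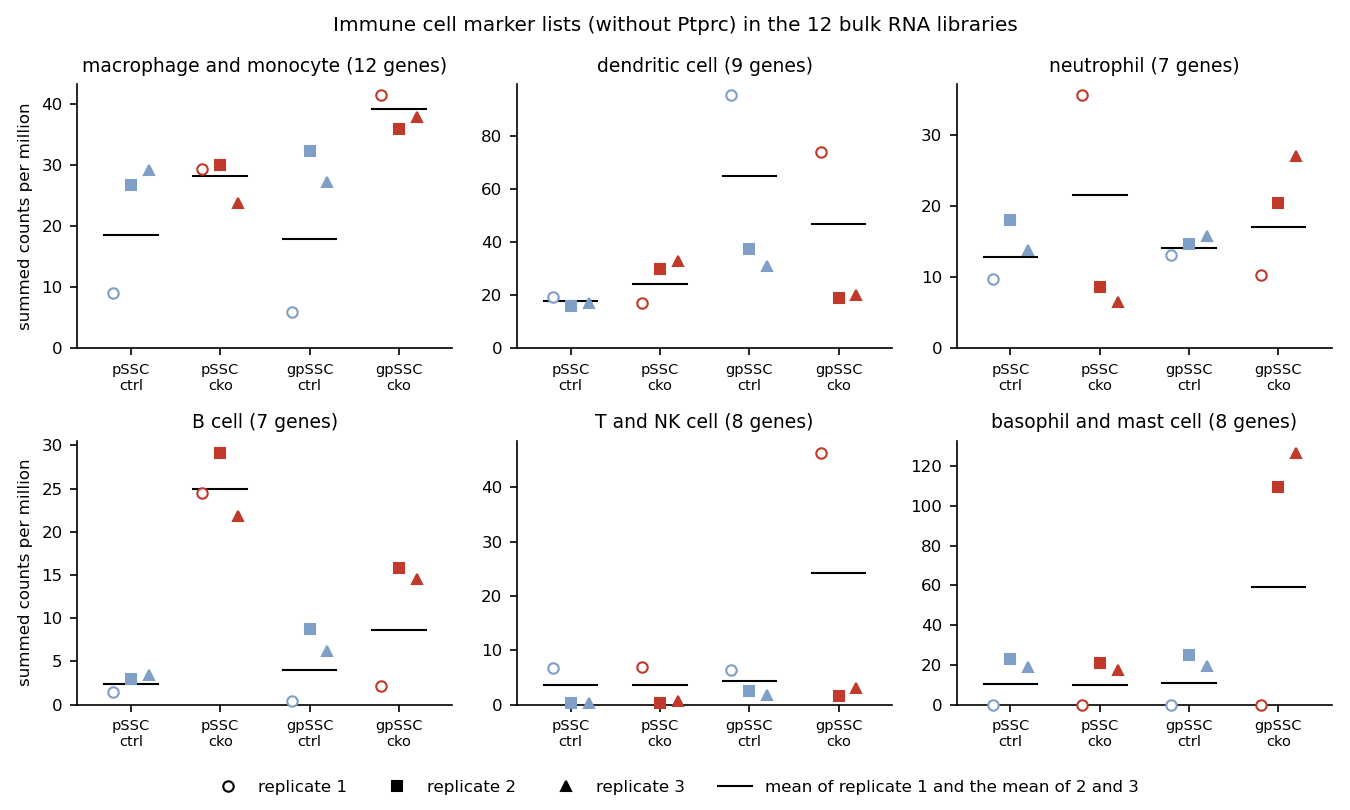
Summed bulk RNA level (y axis, counts per 1000000, linear from 0) of 6 immune marker lists, Ptprc left out, in the 12 libraries; symbols mark replicates 1 to 3 and black lines the mean of replicate 1 and the mean of replicates 2 and 3. The B cell list is at 21.8 to 29.1 in pSSC cko against 1.5 to 3.42 in pSSC ctrl, and the basophil and mast cell list reaches 109 and 126 in gpSSC cko replicates 2 and 3.

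In gpSSCs, 7 of the 9 members tested had a higher fitted level in cko (median log2 fold change 0.56, against 0.00 over 12041 genes, of which 50.2% were above 0), and none passed. By edgeR's quasi-likelihood test with Benjamini-Hochberg adjustment, 0 of 12041 genes (0%) passed in this comparison, 57 had an unadjusted p under 0.05, none of them a member, and DESeq2 called 1 gene. In simulated data for this comparison, 1% of genes with a true log2 fold change of 2 were called, and 50% of those with 4. The lack of a call therefore does not show that a member was unchanged. With the replicate number as a block 12 genes (0.0997%) passed, with 0 members and 0 other pathway genes among them. H2-D1 was at 425, 726 and 716 CPM in ctrl and 757, 827 and 879 CPM in cko, without overlap. The share of all genes whose gpSSC groups did not overlap was not counted, so this does not set H2-D1 apart. Its fitted log2 fold change was 0.56 ± 0.48 (SE, n = 2, adjusted p = 0.999954 by edgeR). Cd74 was at 6.34, 1.25 and 1.59 CPM in ctrl and 5.98, 5.78 and 6.18 CPM in cko (0.71 ± 1.57), a ratio of 0.944 in replicate 1 and 4.13 in replicates 2 and 3. H2-Ab1 was at 0.845, 17.5 and 14.1 CPM against 10.3, 19.6 and 22.7 CPM (1.00 ± 1.28). Without ctrl replicate 1 the fitted values became 0.12 for H2-Ab1, 2.09 for Cd74 and 0.23 for H2-D1, and leaving out any other library they stayed between 0.87 and 1.42, 0.66 and 0.73, and 0.52 and 0.65. The adjusted p was 0.999954 for every member tested.

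For the remaining gpSSC members, ctrl and cko libraries overlapped. Cko over ctrl in replicates 2 and 3 was 1.24 for H2-Aa, 1.5 for H2-Eb1, 0.884 for H2-K1, 1.05 for B2m, 1.20 for Tap1, 1.34 for Tap2 and 0.646 for Nlrc5. In replicate 1 it was 1.03 for H2-Aa, 1.64 for H2-K1, 1.38 for B2m, 5.80 for Tap1 (1.69 against 9.79 CPM) and 0.273 for Tap2, so that the order of ctrl and cko differed between replicate 1 and the others for H2-K1 and Tap2. H2-Aa, at 10 or 11 counts per group, did not pass the filter on low counts. Cko was higher in all 3 pairs for H2-Ab1, H2-D1, B2m and Tap1, beside 15.8% of genes. The difference between the pSSC and the gpSSC effect was not tested.

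Some immune genes also had higher values in gpSSC cko than in ctrl. Mcpt8, a protease of basophils, was at 0, 17.2 and 11.9 CPM in ctrl and 0, 67.4 and 86.0 CPM in cko, and the basophil and mast cell list summed to 0, 24.7 and 19.5 against 0, 109 and 126 CPM. Ptprc had 0, 2 and 0 counts in ctrl and 0, 6 and 30 in cko. The macrophage and monocyte list summed to 5.91, 32.2 and 27.2 CPM in ctrl and 41.3, 35.8 and 37.8 CPM in cko, with no overlap. Its 11 genes other than Lyz2 were at 2.96, 31.6 and 26.4 against 38.6, 34.7 and 37.6 CPM. The dendritic cell list, at 95.5, 37.5 and 31.0 against 74.0, 18.9 and 20.3 CPM, was lower in cko in each pair. Neutrophil genes were at 13.1, 14.7 and 15.9 against 10.3, 20.4 and 27.2 CPM, with overlapping ranges. The B cell list was at 0.422, 8.76 and 6.16 CPM against 2.18, 15.8 and 14.6 CPM, higher in cko in all 3 pairs with overlapping ranges. Ccl5, a chemokine of T and NK cells, was detected in replicate 1 alone, at 6.34 CPM in ctrl and 46.2 CPM in cko. The erythroid list was far larger, at 20.7, 6559 and 6581 CPM in ctrl and 16.9, 2728 and 2798 CPM in cko, lower in cko in each pair. The endothelial list was at 43.1, 46.0 and 43.5 CPM against 113, 61.2 and 61.8 CPM, higher in cko with no overlap. Their part in the member values was not tested.

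**Figure D3:**
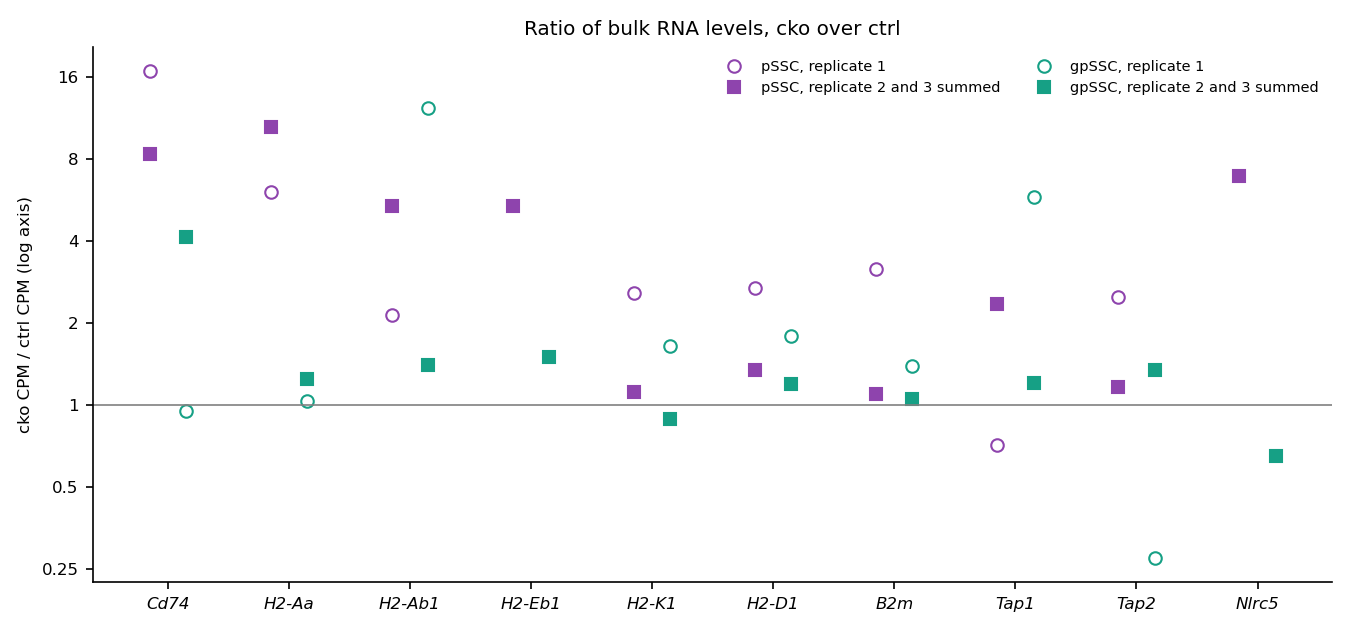
Ratio of bulk RNA levels in cko over ctrl (y axis, log scale, grey line at 1) for the 10 genes in pSSCs (purple) and gpSSCs (green); open circles are replicate 1 and filled squares replicates 2 and 3 summed, and no circle is drawn where ctrl had no count. In pSSCs the replicate 2 and 3 ratios run from 1.09 (B2m) to 10.5 (H2-Aa), and in gpSSCs from 0.646 (Nlrc5) to 4.13 (Cd74).

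The tissues were compared over ctrl and cko together, asking whether periosteal cells carried more of this RNA than growth plate cells. Of the 10 members, 9 had a higher fitted level in pSSCs, with a median log2 difference of 1.01 against 0.04 over 13173 genes, 51.9% of which were above 0. Markers of other cell types also differed between the tissues. The osteoblast list (Ibsp the most abundant) was at 4807 to 16429 CPM in pSSC and 16859 to 60002 CPM in gpSSC libraries, without overlap. The Schwann cell list (Pmp22 the most abundant) was at 363 to 627 and 164 to 446 CPM, higher in pSSCs in each same-numbered pair. The endothelial list (109 to 201 CPM in pSSC and 43.1 to 113 CPM in gpSSC libraries) and the BMSC list (7 genes, all detected, Cxcl12 the most abundant; 534 to 1227 and 428 to 750 CPM) were higher in pSSCs in each of the 6 pairs of the same genotype and replicate number, and the erythroid list was lower in pSSCs in replicates 2 and 3. Their part in the member values was not tested. None of the members passed edgeR's test without a block, in which 49 genes (0.372%) did, 19 of them higher in pSSCs. In simulated data for this contrast, 14% of genes with a true log2 difference of 2 were called, and 66% of those with 4. With the replicate number as a block, which sets same-numbered libraries against each other, 908 genes (6.89%) passed, 3.97% higher and 2.92% lower in pSSCs, and 3 members were among those higher. B2m, at 210, 1652 and 1607 CPM in gpSSC ctrl against the 338, 3378 and 3399 CPM of pSSC ctrl given above, had a log2 difference of 1.16 ± 0.17 with the block (adjusted p = 1.61e-05) and 1.04 ± 0.85 without it (adjusted p = 0.863). For H2-D1 the difference was 1.02 ± 0.17 with the block (adjusted p = 6.49e-05) and 1.01 ± 0.30 without it (adjusted p = 0.244). For H2-K1 it was 0.68 ± 0.20 (adjusted p = 0.0284) and 0.69 ± 0.32 (adjusted p = 0.614). The fitted differences of the class I chains were about the same in either fit, and the calls rest on the pairing of replicate numbers.

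Over the ctrl libraries alone, an alternative added after seeing the data, 7 of 9 members tested were higher in pSSCs and 0 of 12151 genes passed edgeR's test without the block, with 630 at an unadjusted p under 0.05. With the block 388 genes (3.19%) passed and 2 members were among them, B2m (0.85 ± 0.23, adjusted p = 0.0107) and H2-D1 (0.85 ± 0.26, adjusted p = 0.0371). H2-K1, at 0.46 ± 0.31 (adjusted p = 0.641), did not pass. In the fit over all 4 groups with the block, the difference between the ctrl groups gave 476 calls (3.61%), again with B2m and H2-D1 among them and H2-K1 not (adjusted p = 0.402 by edgeR). The ctrl difference was 0.22 for Cd74 and -0.57 for Nlrc5 without the block, and neither passed.

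No class II gene passed between the tissues. Cd74 had a log2 difference of 1.78 ± 0.83 (adjusted p = 0.609) and H2-Aa 2.12 ± 1.22 (adjusted p = 0.741) in edgeR's fit, with pSSC cko the highest group for each. Leaving out each library in turn, the difference ran from 0.89 (without pSSC cko replicate 1) to 2.40 (without gpSSC ctrl replicate 1) for Cd74 and from 1.10 (without pSSC ctrl replicate 1) to 2.50 (without gpSSC ctrl replicate 1) for H2-Aa. H2-Ab1 was at -0.03 ± 1.13, and its pSSC ctrl libraries (0.750, 8.55 and 10.3 CPM) were each below the gpSSC ctrl library of the same number (0.845, 17.5 and 14.1 CPM). With the block none of the class II members, Tap1, Tap2 or Nlrc5 passed (adjusted p between 0.197 and 0.884).

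The other genes of the pathway, 93 in 7 lists, were compared between the tissues in the same fits, and those named for the fit with the block are all those of their list that passed, except for the interferon-induced genes. Among 23 interferon-induced genes tested, 20 had a higher level in pSSCs (median log2 difference 1.34), none passed without the block, and 12 rose and 0 fell with it (median 1.48), beside 3.97% and 2.92% of all genes. Over the ctrl libraries alone 18 of 22 were higher (median 1.17) and none passed with or without the block, and in the ctrl difference of the fit over all 4 groups with the block 2 of 23 rose (Gbp3 and Ifi47). Oasl2, an interferon-induced gene of the oligoadenylate synthetase family, differed by 1.89 ± 0.55 (adjusted p = 0.217 without the block) and Irgm1, an interferon-induced GTPase, by 1.55 ± 0.46 (adjusted p = 0.240). Of 13 genes of class I peptide supply, 5 rose and 1 fell with the block, and none passed without it or over the ctrl libraries alone. The 5 were the immunoproteasome subunits Psmb8 (1.32 ± 0.36, adjusted p = 0.0196, and 1.46 ± 0.96 with adjusted p = 0.798 without the block) and Psmb10 (1.11 ± 0.28, adjusted p = 0.0110, and 1.14 ± 0.42 with adjusted p = 0.400), the proteasome activator subunits Psme1 and Psme2, and Tapbp, which bridges class I to TAP, and Hspa5, a chaperone of the endoplasmic reticulum, fell by 0.56.

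Of 7 genes that load class II tested, 1 rose and 1 fell in pSSCs with the block. H2-DMb1, a chain of the peptide exchange factor H2-DM, was at 143, 55.7 and 54.6 CPM in gpSSC ctrl against 39.0, 23 and 22.7 CPM in pSSC ctrl, and differed by -2.29 ± 0.59 without the block (adjusted p = 0.151) and -2.04 ± 0.32 with it (adjusted p = 4.22e-05). Ctsl, a lysosomal protease, rose by 1.00 with the block, and 3 of the 7 were higher in pSSCs (median -0.61). Ifngr1, the ligand-binding chain of the interferon-gamma receptor, rose by 1.11 with the block (adjusted p = 0.00604) and was at 1.11 ± 0.32 without it (adjusted p = 0.214). Among 12 other class I heavy chains tested, H2-T23 passed with the block (1.73 ± 0.52, adjusted p = 0.0404) and not without it (1.63 ± 0.58, adjusted p = 0.375). Over the ctrl libraries alone no gene of any of the 7 lists passed edgeR's test with or without the block, and in the fit over all 4 groups with the block Ifngr1 was the only one outside the interferon-induced genes that did. Of 12 MHC regulators tested 6 were higher in pSSCs, and none passed. Socs1 (-0.93, adjusted p = 0.496) was next among the genes lower in pSSCs and did not pass either.

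In the pSSC genotype contrast, which chose the members, the lists are described without a test. Of 23 interferon-induced genes 13 were higher in cko (median log2 fold change 0.51) and 8 exceeded 1, and of 13 peptide supply genes 10 were higher (median 0.30). The 6 class II loading genes were all higher, with a median of 0.22, and the 12 other class I heavy chains had a median of 0.74 with 8 higher. The interferon receptors and signalling genes were mostly lower, with 3 of 9 higher (median -0.12), and 6 of 11 regulators were higher (median 0.58).

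Single genes show how uneven these lists were. Iigp1, an interferon-induced GTPase, was at 5.25, 141 and 135 CPM in ctrl and 48.5, 338 and 341 CPM in cko, and Psmb8 at 7.50, 156 and 160 against 50.1, 259 and 284 CPM. Both were higher in cko within every replicate number. Ifit3, a gene induced mainly by type I interferon, was higher in cko in replicate 1 alone, at 18.8, 206 and 210 CPM against 31.5, 93.4 and 109 CPM. These 3 were chosen after their values were seen, and so was Ciita, the class II transactivator, which had 0, 9 and 11 counts in ctrl and 0, 1 and 0 counts in cko, the opposite order to Cd74 and H2-Aa.

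The largest fitted differences among pathway genes with at least 5 CPM in a group were those of Ctss (2.84), Gbp6 (2.63), Cd1d1 (2.06), H2-Q6 (1.95) and Mr1 (1.77). Ctss, the protease that trims the invariant chain, rested on replicate 1, at 3.75, 0.658 and 0.201 CPM in ctrl and 30.4, 0.306 and 0.564 CPM in cko. Gbp6, an interferon-induced guanylate-binding protein, rested on replicates 2 and 3, at 0, 1.64 and 5.63 against 0, 30.0 and 28.6 CPM. H2-Q6, a non-classical class I heavy chain, was higher in all 3 cko libraries, at 5.25, 16.1 and 14.1 against 49.6, 30.0 and 36.5 CPM. The lowest were Tyk2 (-2.70), a kinase of the interferon receptors, H2-T24 (-1.82), Irf2 (-1.54), H2-M3 (-1.16) and H2-T23 (-0.93). Tyk2 was at 75.8, 15.5 and 14.1 CPM in ctrl and 7.47, 7.96 and 8.28 CPM in cko, and H2-T23 at 44.3, 68.1 and 83.9 against 37.9, 30.6 and 30.7 CPM, with no overlap for either. Of the same genes in gpSSCs, Tyk2 was at 48.6, 3.75 and 5.16 CPM in ctrl and 12, 3.85 and 2.72 CPM in cko (-1.78, adjusted p = 0.999954 by edgeR).

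In gpSSCs no list gene passed edgeR's test. Jak1, a kinase of the interferon receptors, had the smallest p (0.99 ± 0.53, adjusted p = 0.999954), followed by Irf9 (1.24 ± 0.66) and H2-DMb1 (1.48 ± 0.84), and on the lower side by Tyk2 (-1.78), Lgmn, a lysosomal protease (-0.57), and the lipid-presenting Cd1d1 (-1.79). Higher levels in cko were counted for 12 of 13 peptide supply genes (median 0.28), 14 of 22 interferon-induced genes (0.20), 6 of 7 class II loading genes (0.63), 10 of 12 regulators (0.37), 6 of 9 interferon receptors and signalling genes (0.07) and 5 of 12 other class I heavy chains (-0.23).

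Among 10408 genes with a mean of at least 5 CPM, the profile most like the mean of Cd74, H2-Aa, H2-Ab1 and H2-Eb1 over the 12 libraries was that of Gm2694 (Pearson r = 0.94), followed by Tbx18, Tnfaip6, Tmem196, Pip4k2b, Barx1, Ednrb, BC028528, Has1 and Col22a1 (r down to 0.885). Gm2694 was at 4.50, 7.56 and 6.04 CPM in pSSC ctrl and 30.4, 53.0 and 51.2 CPM in cko, and Has1, a hyaluronan synthase, at 123, 298 and 274 against 368, 973 and 929 CPM. The mean of H2-K1, H2-D1 and B2m was most like Adgre5 (r = 0.979), Adamtsl5, Epb41l3, Cd44, Grina, Igfbp4, Traf5, Serpinb6a, Slfn5 and Pla1a (r down to 0.964). Cd44, a hyaluronan receptor, was at 87.8, 193 and 195 CPM in pSSC ctrl, 175, 218 and 212 CPM in pSSC cko, and 34.6 to 105 CPM in gpSSCs. The libraries share the step between replicate 1 and the others, which can move such an r, and the class II profile includes the pSSC values that chose the set. Within that profile Cd74 had r = 0.91 with H2-Aa but -0.15 with H2-Ab1 and -0.09 with H2-Eb1. H2-Ab1 and H2-Eb1 had r = 0.90 with each other, so the mean joins genes of unlike order.

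ATAC peaks had been called per library, with 59209 to 101606 peaks from 12250713 to 46756821 tags. Within 10 kb of the 10 genes lay 60 merged peak regions, of which 16 were found in all 12 libraries, 41 in a pSSC library and 52 in a gpSSC library. The windows of H2-Aa, H2-Ab1 and H2-Eb1 overlap, as do those of Tap1 and Tap2, and the windows also hold other genes (Tcof1 beside Cd74, Psmb8 and Psmb9 beside Tap1, Patl2 and Trim69 beside B2m), so regions are not independent. The sequences shown above lay under peaks. Merged regions to which 12 of 12 libraries contributed a peak held all 250 bases of the H2-Aa and H2-K1 windows, with a pileup of 0.836 to 2.07 per 1000000 tags at H2-Aa and 3.42 to 8.73 at H2-K1, and a region with peaks of 9 of 12 libraries held 238 bases of the H2-Eb1 window. Regions with peaks of all 12 libraries likewise held the H2-D1, B2m and Tap1 windows, and the peak of a single library can be narrower than its region.

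At Cd74 and Tap2 no pSSC library had a peak over the start. A region at -1789 bases from the start (chr18:60801833-60802261) had a peak in 1 of 3 pSSC ctrl libraries (pileup 1.10 per 1000000 tags) and in 3 of 3 cko libraries (0.782, 1.06 and 0.684), and in none of the gpSSC libraries. The region nearest to the Tap2 start had its summit 980 bases after it, in 12 of 12 libraries. The other Cd74 regions were each found in at most 1 of 3 libraries of a gpSSC group. H2-Ab1 had a region 120 bases after its start in 0 of 3 pSSC ctrl, 1 of 3 pSSC cko, 3 of 3 gpSSC ctrl and 1 of 3 gpSSC cko libraries.

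In pSSCs, 3 regions had a peak in 3 of 3 cko and 0 of 3 ctrl libraries, and 0 had the reverse. Over all peak regions found in pSSC libraries these shares were 2.81% and 0.119%. Nlrc5 held 2 of the 3, in introns 2812 bases (chr8:94437013-94437283; pileup 1.34, 1.72 and 1.09 per 1000000 tags in cko replicates 1, 2 and 3) and 9102 bases (chr8:94442970-94443610; 0.782, 1.12 and 0.556) after its start. The third, at chr2:122158289-122158845, lay 10698 bases after the B2m start within Patl2 (1.29, 1.79 and 0.813). Tags differed between the libraries, from 12250713 to 26371117 in ctrl and from 15115534 to 46756821 in cko, and the part of depth in these peaks was not tested. In gpSSCs no region followed either pattern, against 0.0459% and 1.32% of all regions found in gpSSC libraries. Between the tissues, 3 regions were found in 6 of 6 gpSSC and 0 of 6 pSSC libraries, in a Tap2 intron (chr17:34210444-34211081), upstream of Nlrc5 (chr8:94428012-94428963) and beyond its end (chr8:94529633-94530046), and 0 had the reverse. The shares over all 176624 regions were 6.1% and 3.6%.

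**Figure D4:**
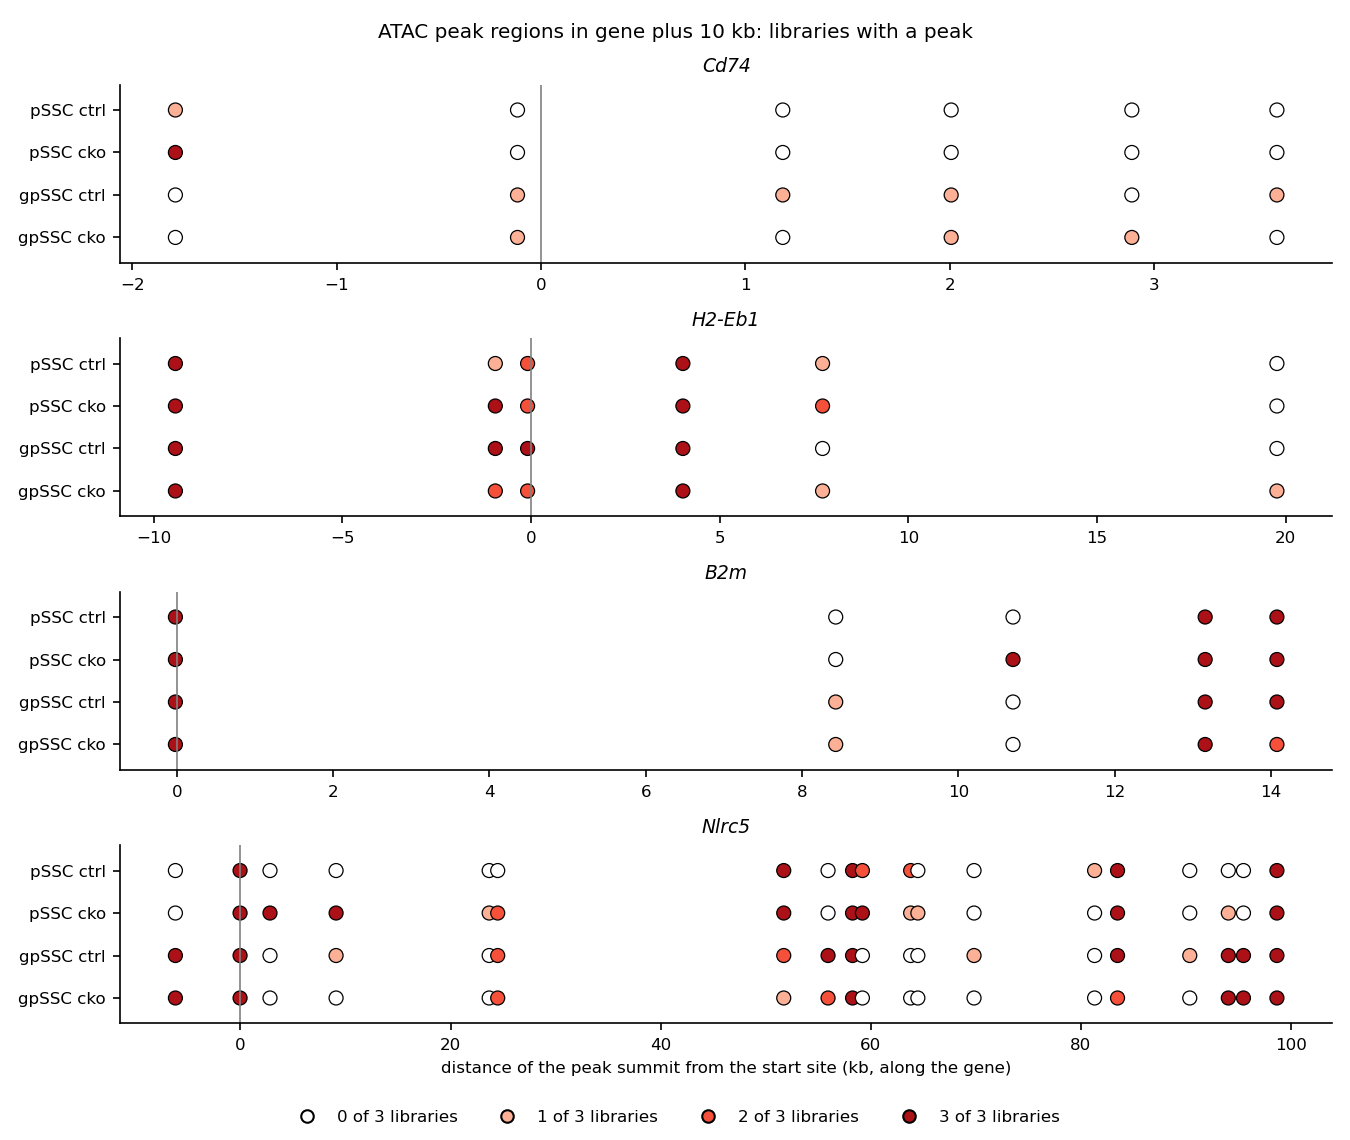
Merged ATAC peak regions at Cd74, H2-Eb1, B2m and Nlrc5 by distance of the summit from the start site (x axis, kb along the gene, start at the grey line), with the number of the 3 libraries of each group that had a peak as the fill of each circle, from white (0) to dark red (3). The regions at 2.8 and 9.1 kb in Nlrc5 and at 10.7 kb at B2m are filled in pSSC cko and white in pSSC ctrl.

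Summed over each window, the peak signal did not pass a test of genotype for any member. Signal is the summed pileup per 1000000 tags, tested by limma on log2(signal + 1) over 35737 genes with all 12 libraries sharing 1 estimate of the spread. In pSSCs 7 of 10 members were higher in cko (median log2 difference 0.16, against 0 over all genes, 48.8% of which were above 0), and 20 genes (0.056%) passed, none of them a member. In simulated data for this comparison, 2% of genes with a true log2 difference of 1 were called, and 62% of those with 2. H2-Eb1 had the smallest p, at 3.09, 2.45 and 6.37 in ctrl and 5.98, 6.88 and 6.10 in cko (0.64 ± 0.36, adjusted p = 1 by limma). Nlrc5 was at 21.7, 20.1 and 20.9 in ctrl and 24.3, 29.6 and 18.1 in cko (0.16 ± 0.36). B2m was at 12.6, 12.2 and 9.86 against 14.8, 16.7 and 8.51 (0.15 ± 0.37), and Cd74 at 0, 0 and 1.10 against 0.782, 1.06 and 0.684 (0.52 ± 0.46). All of these ranges of ctrl and cko overlapped.

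In gpSSCs 1 of 10 members was higher in cko, with a median log2 difference of -0.14 against -0.16 over all genes, 16.9% of which were above 0, so that the members followed the shift of the whole table. H2-Ab1 was at 7.01, 7.50 and 5.41 in ctrl and 6.18, 5.02 and 2.79 in cko (-0.47 ± 0.36, adjusted p = 1 by limma) and H2-Aa at 4.15, 2.72 and 3.69 against 2.01, 2.24 and 2.79 (-0.43 ± 0.33, adjusted p = 1), and 0 of 35737 genes (0%) passed, with 843 at an unadjusted p under 0.05. Between the tissues, 11086 genes (31%) passed, 14.9% higher and 16.1% lower in pSSCs, and 0 of the 10 members were among them, while 8 were higher in pSSCs (median 0.15 against 0.07 over all genes, 55.5% of which were above 0). The nearest were Tap1 (0.56 ± 0.24, limma adjusted p = 0.0858), H2-Ab1 (-0.56 ± 0.25, adjusted p = 0.0949) and B2m (0.46 ± 0.26, adjusted p = 0.200). With the replicate number as a block 13850 genes (38.8%) passed and 1 member was among them, Tap1 (0.56 ± 0.18, adjusted p = 0.0219), and H2-Ab1 passed when peaks of -log10 q of at least 10 were used (-0.90 ± 0.32, adjusted p = 0.0368). Tap1 also passed without pSSC cko replicate 3 (adjusted p = 0.0487 by limma) and H2-Ab1 without gpSSC cko replicate 3 (adjusted p = 0.00999).

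Of 89 other pathway genes tested in accessibility, 23 (25.8%) passed between the tissues, beside 31% of all genes, 18 of them higher in pSSCs and 5 lower. Among 23 interferon-induced genes, 10 rose in pSSCs, 0 fell and 21 had a value above 0, led by the chemokine gene Cxcl9 (log2 difference 2.90 ± 0.27, limma adjusted p = 1.15e-09), Iigp1 (2.09 ± 0.24, adjusted p = 7.33e-08) and the GTPase gene Ifi47 (1.64 ± 0.24). The loci of the interferons Ifng (2.08 ± 0.25) and Ifnb1 (1.47 ± 0.26) were also more accessible in pSSCs, although no count of either was found in the RNA libraries. The 5 that fell were Ciita (-2.44 ± 0.26, adjusted p = 1.5e-08), Ctss (-1.82 ± 0.27), H2-DMb1 (-1.49 ± 0.25), H2-DMb2 (-0.88 ± 0.26) and the class I heavy chain gene H2-Q10 (-0.71 ± 0.26). Of the 9 class II loading genes 3 fell and 0 rose, of the 13 peptide supply genes 1 rose (Psme3, a proteasome activator subunit, 0.89 ± 0.26) and 0 fell, of the 13 regulators 1 rose (Irf8, 0.65 ± 0.25) and 1 fell, and of the 15 other class I heavy chains 1 fell and 2 rose, H2-T10 (0.67 ± 0.24) and H2-T24 (0.63 ± 0.24). No pathway gene passed for genotype in either population by limma. H2-Q6 came nearest in pSSCs (0.96 ± 0.35, adjusted p = 0.443), ahead of Ctss (0.78 ± 0.38, adjusted p = 0.984) and Mx1 (0.60), with Cd40 (-0.54), Irf1 (-0.46) and Irf9 (-0.42) on the lower side. In gpSSCs H2-Q7 (0.25), Cxcl9 (0.27) and H2-Oa (0.22) and, on the lower side, Ifnb1 (-0.60), Psme3 (-0.55) and H2-T3 (-0.58) came nearest (adjusted p = 1).

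The single-cell libraries show which cells carried this RNA. After the study's filter, 993 and 782 cells were kept at 8 weeks (Prx1-Cre and Osx-Cre) and 2068 and 2362 at 16 weeks (ctrl and cko), with median UMIs of 1043, 925.5, 1427.5 and 1274, and pairs of libraries shared 0 to 10 barcodes. Cells were clustered without the members, the pathway lists and the immune lists, and named from marker genes, as bone marrow stromal (BMSC-like; 563, 546, 1688 and 2063 cells in that order), osteoblast (OB-like; 73, 63, 187 and 175), and at 8 weeks periosteal (PMSC-like; 165 and 76) and chondrocyte-like (161 and 74) cells. At 16 weeks a cluster of 122 ctrl and 50 cko cells mixed chondrocyte and periosteal markers and is called mixed, and BMSC-like cells formed 2 clusters (1153 ctrl and 1200 cko cells, and 535 and 863). The remaining classes held 5 to 54 cells per library. They were pericyte-like at both ages, endothelial-like at 8 weeks and erythroid-like at 16 weeks. Names rebuilt from markers can differ from those of the study. There was 1 library per group, so values have no test and their exact Poisson 95% intervals cover counting error only.

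Class I chains were highest in BMSC-like cells and lowest in chondrocyte-like cells in each library at 8 weeks. H2-D1 was at 9511 UMIs per 1000000 (9251 to 9776) in BMSC-like, 1637 in PMSC-like, 1337 in OB-like and 269 (227 to 317) in chondrocyte-like cells of the Prx1-Cre library. B2m followed with 5520, 1299, 2098 and 189, and H2-K1 with 2666, 431, 317 and 116. The intervals of BMSC-like and chondrocyte-like cells were far apart for each gene, and the chondrocyte-like cells were the deeper ones, at a median of 3209 UMIs against 900. In the Osx-Cre library H2-D1 was at 10723 in BMSC-like, 4329 in PMSC-like, 1463 in OB-like and 221 in chondrocyte-like cells. PMSC-like cells thus differed between the 8-week libraries, and of the 76 in the Osx-Cre library 67 fell, at a finer resolution, into a cluster led by Mmp13 and Spp1. At 16 weeks BMSC-like cells were again above OB-like and mixed cells, with H2-D1 at 9066 and 8005 (ctrl and cko) in BMSC-like, 3144 and 3569 in OB-like and 547 and 1194 in mixed cells.

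Between the 16-week ctrl and cko libraries, the class I chains of BMSC-like cells differed by small amounts. These cells pooled the BMSC-like clusters, of 1153 and 535 cells in ctrl and 1200 and 863 in cko, with median depths of 1828 and 759 UMIs. A difference in level therefore cannot be told apart from a difference in the mix of clusters. H2-D1 was at 9066 (8952 to 9181) in ctrl and 8005 (7904 to 8108) in cko, H2-K1 at 3096 (3030 to 3164) and 2788 (2728 to 2849), and B2m at 5458 (5370 to 5547) and 5637 (5552 to 5723) UMIs per 1000000. For H2-D1 and H2-K1 ctrl was the higher library, and for B2m cko was, beyond counting error in each case. In OB-like cells cko was the higher library for all 3, with H2-K1 at 1080 (981 to 1185) in ctrl and 1409 (1266 to 1564) in cko, H2-D1 at 3144 (2974 to 3321) and 3569 (3339 to 3810) and B2m at 3418 (3241 to 3602) and 3882 (3643 to 4133). The mixed cells had the same order, with non-overlapping intervals for H2-D1 (476 to 625 and 1023 to 1386) and B2m (535 to 692 and 813 to 1140). In the mixed class too, level cannot be told apart from the share of chondrocyte and periosteal cells. Tap1 was at 65.1 (55.8 to 75.6) in ctrl and 40.4 (33.5 to 48.3) in cko BMSC-like cells, Nlrc5 at 24.7 (19.1 to 31.4) and 14.1 (10.2 to 19.1), and Tap2 at 117 (105 to 131) and 104 (92.4 to 116). The intervals of Tap2 overlapped and those of Tap1 and Nlrc5 did not. B2m was thus the sole class I gene of these with a higher level in cko BMSC-like cells, while in the pSSC bulk libraries at 20 weeks cko was the higher group for each of them in replicates 2 and 3. The cells, ages and assays differ, so these values stand side by side with no comparison. Zmpste24 had 53 UMIs in 1688 ctrl and 9 UMIs in 2063 cko BMSC-like cells, 19.8 (14.9 to 26.0) and 3.03 (1.38 to 5.75) per 1000000.

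**Figure D5:**
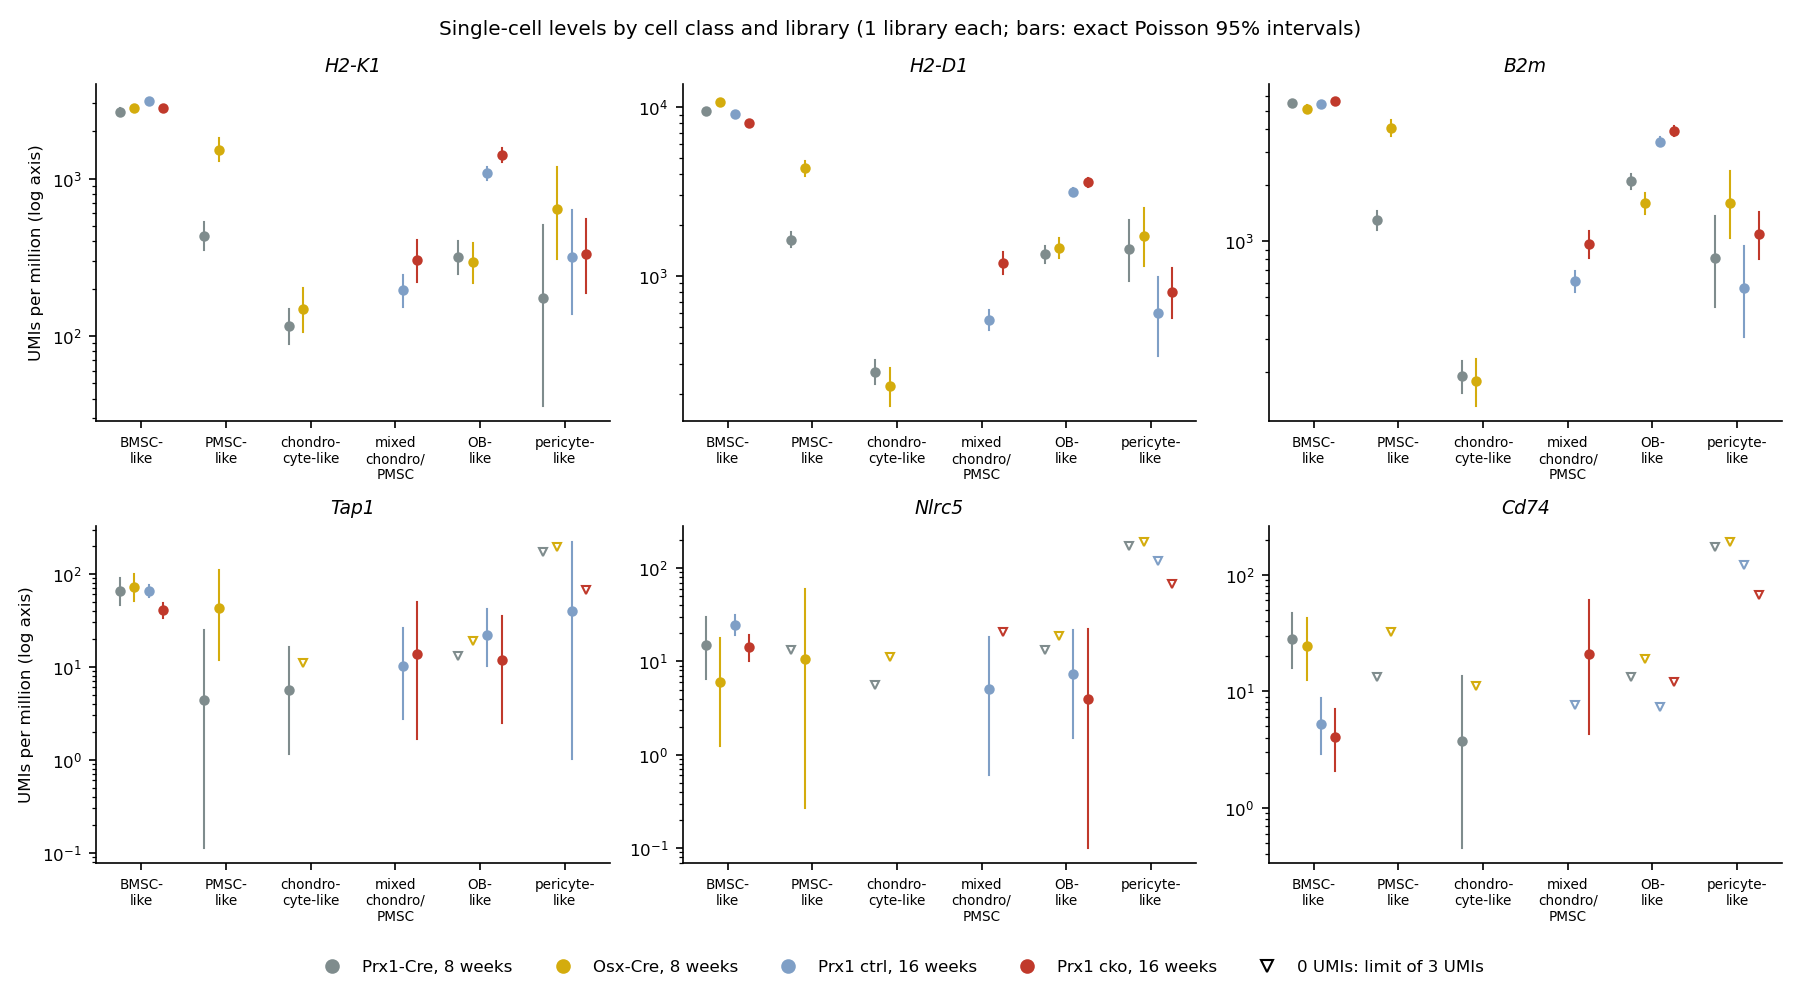
Single-cell levels (y axis, UMIs per 1000000, log scale) of H2-K1, H2-D1, B2m, Tap1, Nlrc5 and Cd74 by cell class and library (colour), with exact Poisson 95% intervals as bars and open triangles at the level of 3 UMIs where none was counted. For H2-D1, BMSC-like cells sit between 8005 and 10723 and chondrocyte-like cells at 221 and 269.

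Cd74 and H2-Aa RNA was near the limit of detection in all 4 libraries. Cd74 had 17, 13, 20 and 15 UMIs (Prx1-Cre, Osx-Cre, ctrl and cko), in 8, 7, 12 and 12 cells, or 0.806%, 0.895%, 0.580% and 0.508% of cells. S100a8, a neutrophil gene that skeletal cells should lack, had a UMI in 2.11%, 1.92%, 1.55% and 1.35% of the same cells, so the Cd74 shares lie below that share. The Cd74 UMIs were gathered in few cells, with up to 5, 5, 6 and 2 UMIs in a single cell, and the 5 cells with the most held 82.4%, 84.6%, 65% and 53.3% of them. The ctrl cell with 6 UMIs was the sole erythroid-like cell of that library with Cd74, and that class also held 2 H2-Aa UMIs. In BMSC-like cells Cd74 was at 5.24 (2.87 to 8.79) in ctrl and 4.04 (2.09 to 7.05) UMIs per 1000000 in cko, with overlapping intervals. None of the cells with a Cd74 UMI had a UMI of Ptprc. Ptprc had a UMI in only 1, 2, 0 and 2 cells of the whole libraries, so its absence from so few cells says little. Of the cells with a Cd74 UMI, 1, 0, 3 and 1 had at least 2 genes of an immune list. These are 12.5%, 0%, 25% and 8.33% of them. Of the cells without Cd74, 1.02%, 0.774%, 1.02% and 1.02% had a Ptprc UMI or at least 2 genes of an immune list. Cxcl12, the marker chemokine of marrow stromal cells, was detected in 6 of 8, 7 of 7, 11 of 12 and 12 of 12 cells with Cd74. Among cells without Cd74 it was detected in 734 of 985, 667 of 775, 1943 of 2056 and 2277 of 2350, so Cxcl12 does not set the Cd74 cells apart. Without the 11, 6, 24 and 25 cells that had a Ptprc UMI or at least 2 genes of an immune list, Cd74 kept 12, 13, 11 and 14 UMIs.

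H2-Eb1 was detected in a larger share of BMSC-like cells than S100a8 at 16 weeks. It had 46 UMIs in ctrl and 51 in cko BMSC-like cells, 17.2 (12.6 to 23) and 17.2 (12.8 to 22.6) per 1000000, in 2.67% and 2.28% of cells (S100a8 in 1.54% and 1.26%), at median depths of 1395.5 and 1255 UMIs. In OB-like cells, at median depths of 1300 and 1132, it had 0 UMIs in 187 ctrl cells and 1 UMI in 175 cko cells. Thinned to 1000 UMIs, 1184 ctrl and 1272 cko BMSC-like cells remained and 2.03% and 1.81% had an H2-Eb1 UMI. H2-Aa had 4, 1, 6 and 4 UMIs in the 4 libraries and H2-Ab1 28, 4, 16 and 19, too few to compare ctrl with cko. Of the 28 H2-Ab1 UMIs of the Prx1-Cre library, 16 were in chondrocyte-like cells, in 8.70% of them (S100a8 in 1.86%) at a median depth of 3209 UMIs.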

How the data were processed

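Per the labels and the study's methods, bulk RNA libraries (1000 sorted cells, Smart-seq2 with UMIs) were aligned to mm10 with STAR and counted by HTSeq, and the authors deposited counts per gene without normalization. ATAC libraries were aligned with Bowtie2, and the authors called peaks per library with MACS2 without a control (q 0.05), depositing each peak's pileup signal, its fold enrichment and its -log10 p and q values. The authors deposited single-cell UMI counts as Cell Ranger matrices.

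The members and lists were chosen with earlier results of these data known. Of 53801 gene IDs, 53620 matched a symbol. Counts were tested with edgeR 4.0.16 (TMM, filterByExpr, quasi-likelihood, Benjamini-Hochberg over all genes tested). ATAC signal was the pileup summed over peaks in the gene plus 10 kb, per 1000000 tags, tested with limma 3.58.1 on log2(signal + 1) over genes with a peak in at least 3 libraries, on that scale, which understates changes of low genes. Cells with at least 200 genes were clustered with Seurat 5.3.0 (2000 variable features, 20 components and resolution 0.14 at 8 weeks, 22 and 0.15 at 16 weeks); doublets were kept, and leaving out cells above the 95th percentile of UMIs was an alternative. Same-numbered RNA libraries deviated together from their group means (r = 0.57 to 0.64, and -0.62 to -0.60 between replicate 1 and the others). The numbers were therefore taken to pair the samples on the evidence of the data, and the blocked fit is printed where it changes a call. That evidence is from RNA libraries only, and the same numbers were taken as pairs in ATAC without it. Named pathway genes are, per tested comparison, those with the largest change among the called (up to 5 in each direction) or, where none was called, the 3 with the smallest p in each direction, and in pSSC genotype the 5 with the largest and smallest fitted change among genes with at least 5 CPM in a group. Genes most like the members were ranked by Pearson r of log2 CPM (prior count 2). Alternatives covered scaling, filters, other tools, blocks, peak thresholds, windows, pseudocounts, clustering and leaving out each library, and the tissues were also compared over ctrl libraries, added after seeing the data. All scripts for tests were tested on simulated data. Some genes of the lists are not reported here.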

Additional observations from a re-analysis of the deposited data

Results flagged for a closer look

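The ATAC signal of H2-Aa moved in opposite directions in the populations, in every same-numbered pair. The mean of 3 cko libraries over the mean of 3 ctrl libraries was 1.26 in pSSCs (3.01, 2.69 and 4.06 in ctrl, 4.02, 3.84 and 4.41 in cko) and 0.667 in gpSSCs (4.15, 2.72 and 3.69 in ctrl, 2.01, 2.24 and 2.79 in cko), as summed pileup per 1000000 tags. Peaks called in the window covered 1099, 1126 and 1398 bases in pSSC ctrl and 1224, 1229 and 1578 in cko, and 1245, 1175 and 1786 bases in gpSSC ctrl and 979, 1019 and 1436 in cko. With peaks of -log10 q of at least 10 the fitted gpSSC difference was -1.15, and with peaks within 1 kb of the start -0.06, against -0.43 over the whole window. The difference between the populations was not tested, neither difference passed limma's test, and over all genes 16.9% of gpSSC differences lay above 0. H2-Aa was picked by searching the RNA and ATAC values of all members for such opposite pairs. The share of all genes with this pattern was not counted, so how unusual it is cannot be told.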

How the results depend on the processing

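Under alternatives other than leaving out a library, 246 values of single members in bulk RNA kept their direction and side of the threshold, 14 newly passed, 10 moved beyond the spread and 7 reversed; in ATAC 47 kept them, 2 newly passed, 1 fell to 0 and 3 reversed. The limits are the small number of samples (n = 2 per RNA group), replicate 1, depth in class II genes with few counts, and peaks called per library. H2-Aa in gpSSC RNA and H2-Eb1 in pSSC RNA had too few counts for the main test and are not followed here. The direction reversed for Cd74 ATAC in pSSCs with peaks of -log10 q of at least 10 (-0.106), for B2m ATAC in pSSCs with peaks within 1 kb of the start or in the gene body (-0.115 for each), and for H2-Ab1 RNA between tissues with each library as a sample (0.025). Over ctrl libraries, the RNA difference between tissues reversed for Nlrc5 (-0.574; -0.648 with the replicate block; -0.582 in the fit over all 4 groups with the block), Tap2 (-0.142 and -0.215 with the block) and H2-Eb1 (-0.357 in the fit over all 4 groups). Leaving out each library in turn, values that changed sign ran from -0.027 to 0.42 for B2m ATAC in pSSCs, in gpSSC RNA from -0.63 to 0.96 (B2m), -0.26 to 1.54 (H2-Eb1), -0.028 to 0.40 (H2-K1), -1.47 to 0.38 (Nlrc5), -0.14 to 1.16 (Tap1) and -0.48 to 0.47 (Tap2), in pSSC RNA from -0.56 to 0.91 (B2m) and -0.42 to 0.91 (Tap2), and between tissues from -0.51 to 0.46 (H2-Ab1). In pSSC RNA the same ranges were 1.94 to 4.84 (Cd74), 1.26 to 4.68 (H2-Aa), 1.75 to 3.55 (Nlrc5), 1.42 to 3.16 (H2-Ab1), 0.32 to 1.70 (Tap1), 0.45 to 0.81 (H2-D1) and 0.16 to 0.73 (H2-K1), with the lowest and highest reached without ctrl or cko replicate 1 for the first 5, the lowest for H2-D1 without ctrl replicate 1 and the lowest for H2-K1 without cko replicate 1. The cause was not tested.

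Genes called between gpSSC ctrl and cko RNA numbered 0 by the main test, 12 with the replicate block, 1 with DESeq2, 3 without a filter, 57 at the study's threshold (unadjusted p under 0.05 and log2 fold change over 0.25), and 0 to 4 leaving out each library (4 without gpSSC cko replicate 1). Between tissues the 49 calls became 1135 with each library as a sample, 908 with the replicate block, 2937 with both, 541 with DESeq2, 347 without a filter, 1158 at the study's threshold, 0, 388 (replicate block) and 476 (replicate block, fit over all 4 groups) over ctrl libraries, an alternative chosen after seeing the data, and 0 to 61 leaving out each library, with 0 without pSSC ctrl or cko replicate 1, and 28 and 21 without gpSSC ctrl and cko replicate 1. The median of the members in pSSC cko against ctrl (0.85) was 1.52 with DESeq2, 1.53 without a filter, 1.5 in a fit over all 4 groups, 0.77 to 1.48 leaving out each library (1.48 without cko replicate 1), and 1.82 in replicates 2 and 3, an alternative chosen after seeing the data. Genes called in ATAC for pSSC genotype (20) numbered 11 within 1 kb of the start, 264 by number of peaks, 250 with a pseudocount of 0.1, 62 with the replicate block, and 0 to 50 leaving out each library. For gpSSC genotype (0) they numbered 2 with -log10 q of at least 10, 2 within 1 kb, 4 in the gene body, 252 by number of peaks, 135 with a pseudocount of 0.1, and 0 to 7 leaving out each library. Between tissues (11086) they numbered 3681 within 1 kb, 6238 in the gene body, and 9465 to 14365 leaving out each library. The single-cell level of H2-D1 in ctrl BMSC-like cells (9066) was 9316 with each cell thinned to 1000 UMIs. Values in sparse classes moved most under other clusterings.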

Other observations

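At 8 weeks, 16 of the 28 H2-Ab1 UMIs of the Prx1-Cre library were in chondrocyte-like cells, in 14 of 161 cells (8.70%; 29.9 UMIs per 1000000, exact Poisson 95% interval 17.1 to 48.5). PMSC-like cells had a like level, with 7 UMIs in 4 of 165 cells (31.1, 12.5 to 64.2), and BMSC-like cells had 5 UMIs in 563 cells (9.38, 3.05 to 21.9). S100a8 had a UMI in 1.86% of the same chondrocyte-like cells. In the Osx-Cre library 1 of 74 chondrocyte-like cells had an H2-Ab1 UMI (3.69, 0.0934 to 20.5), and Cd74 and H2-Aa were too sparse in either class to compare.

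Among interferon-induced genes, the 16-week BMSC-like cells of the ctrl library held more Cxcl9 than those of the cko library, at 131 (118 to 145) against 34.7 (28.3 to 42) UMIs per 1000000, and up to 28 UMIs of Cxcl9 were found in a single ctrl cell. Iigp1 was at 262 (243 to 282) against 110 (98.4 to 123), whereas Psmb8 was at 348 (326 to 371) against 327 (307 to 348), with overlapping intervals. Ciita had 0 UMIs in 1688 ctrl and 1 UMI in 2063 cko BMSC-like cells. With 1 library per genotype these are values of libraries and were not tested. The mix of the BMSC-like clusters differed between the libraries, and its part in these values was not tested.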
